A study of Mus musculus with 4 samples.

Results

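A set of 10 genes that mark or build the lining of blood vessels is described here across 4 arrays. They were taken by platform gene symbol as a named list, and the list was selected on the log2 ratios of day 10 and day 3 seen earlier on these same arrays: Egfl7, Tie1, Cldn5, Plvap, Kdr, Pecam1, Cdh5, Tek, Flt1 and Eng. All 10 of 10 were found, on 20 spots, among 14386 genes with a named spot. The study followed the mouse embryonic stem cell line CGR8 as it differentiated in embryoid bodies, which are round cell aggregates grown from hanging drops. RNA of embryoid bodies at day 10 was put on 2 spotted arrays of 2 channels with RNA of the undifferentiated day 0 cells, and RNA at day 3 on 2 further arrays with day 0 RNA. The second array of each day is labelled a technical replicate, so each day is 1 RNA pair from 1 cell line, with no agent or allele named for any group. The SD given below is that of the 2 technical arrays and covers no spread between cultures, and no p-value is given.

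Endothelial cells arise in the embryo, and in embryoid bodies, from mesoderm cells that carry the VEGF receptor encoded by Kdr. VEGF signalling through that receptor starts the lineage, the angiopoietin receptors of the Tie family stabilise the young vessels, and adhesion proteins such as VE-cadherin seal the cell contacts. Several of these genes are not confined to vessels: Pecam1 and Eng are also known from undifferentiated mouse stem cells and from blood cells. An embryoid body is a mixture of cell types, so fewer cells of a type and less RNA per cell cannot be told apart in any ratio below.

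Each value is a log2 ratio of the 2 channels of a spot, centred on the median of its array. No source used here gives the dyes or says which channel is the numerator. The sign was therefore kept as deposited, and a value on the positive side may stand for the embryoid bodies or for day 0. For orientation, the pluripotency gene Dppa5a stood at -2.74 and -2.69 on the day 3 arrays, and the pluripotency factor gene Pou5f1 averaged -1.39 ± 0.99 at day 10 and -0.89 ± 0.15 at day 3. Of 11 pluripotency genes measured at day 3, 0 had a mean above 0, and at day 10 this was 4 of 10. The means of these genes ranged from -2.71 to -0.03 at day 3 and from -1.39 to 1.25 at day 10. Dppa5a at day 10 stood at 0.41 and -2.85 on its arrays. A gene was counted as beyond 2-fold where both arrays of a day had a log2 ratio of 1 or more, or both of -1 or less. Spots with no value made up between 10.3% and 18.8% of an array.

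Egfl7 encodes a secreted factor of endothelial cells that acts on the vessel wall, and its mean was the farthest from 0 of the 10 at both days, whichever way the ratio runs. Its locus on chromosome 2 holds the microRNA gene Mir126a within its bounds, and the RefSeq table used here gives 3 transcript starts for it. The arrays carried no named spot for that microRNA, whose mature form is shown as part of the locus, with its seed (bases 2 to 8) in capitals. The windows of 300 bases around the Egfl7 starts and the Tie1 start are shown because Egfl7 and Tie1 were the genes beyond 2-fold at day 3. They run 5′ to 3′ on the gene's strand, 250 bases before to 50 bases after the start (RefSeq, GRCm38.p6). Capitals mark matches, on either strand, to CAGGAAG or CCGGAAG, core letters bound by ETS factors, and to AGATAA or TGATAA, core letters bound by GATA factors. Motifs were chosen after the windows had been read.
mmu-miR-126a-3p, chr2:26591402-26591423, plus strand: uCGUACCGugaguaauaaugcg
Egfl7 start 1, chr2:26580833-26581132, plus strand: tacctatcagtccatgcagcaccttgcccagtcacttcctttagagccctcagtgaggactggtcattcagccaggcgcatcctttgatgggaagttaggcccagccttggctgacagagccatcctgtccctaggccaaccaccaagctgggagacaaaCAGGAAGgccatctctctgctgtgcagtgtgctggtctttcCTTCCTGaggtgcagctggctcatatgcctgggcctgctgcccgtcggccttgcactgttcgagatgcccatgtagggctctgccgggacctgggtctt
Egfl7 start 2, chr2:26583615-26583914, plus strand: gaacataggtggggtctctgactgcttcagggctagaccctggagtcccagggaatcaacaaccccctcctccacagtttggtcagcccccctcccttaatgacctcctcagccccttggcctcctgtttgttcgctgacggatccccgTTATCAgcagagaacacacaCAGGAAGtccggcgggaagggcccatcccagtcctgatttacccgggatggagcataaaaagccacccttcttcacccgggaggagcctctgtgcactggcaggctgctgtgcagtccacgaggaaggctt
Egfl7 start 3, chr2:26586386-26586685, plus strand: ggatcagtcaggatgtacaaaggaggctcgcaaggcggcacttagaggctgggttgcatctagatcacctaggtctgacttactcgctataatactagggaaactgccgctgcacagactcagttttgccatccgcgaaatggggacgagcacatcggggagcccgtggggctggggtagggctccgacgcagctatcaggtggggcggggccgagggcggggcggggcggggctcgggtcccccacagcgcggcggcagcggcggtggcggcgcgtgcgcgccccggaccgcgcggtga
Tie1 start, chr4:118489800-118490099, minus strand: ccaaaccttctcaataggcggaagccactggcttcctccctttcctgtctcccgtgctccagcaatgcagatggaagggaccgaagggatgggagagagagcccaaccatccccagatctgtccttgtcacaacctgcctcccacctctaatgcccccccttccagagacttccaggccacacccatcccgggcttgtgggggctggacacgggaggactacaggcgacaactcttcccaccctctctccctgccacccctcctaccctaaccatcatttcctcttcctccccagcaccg

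The first Egfl7 window held the ETS letters at 90 and 49 bases before the start, in opposite orientations. The second held them at 81 bases before the start, with the GATA letters at 101 bases before it, and the third held neither. The Tie1 window held neither. Promoter windows were available for 7 of the 10 genes, 9 windows in all, and the ETS letters were found in 2 of them, both of Egfl7. The GATA letters were found in the second Egfl7 window and in that of Tek. Over 32851 mouse promoter windows of the same length, 20.9% held the ETS letters and 18.6% the GATA letters, so such matches are common. No motif overlapped another in the windows shown.

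**Figure D1:**
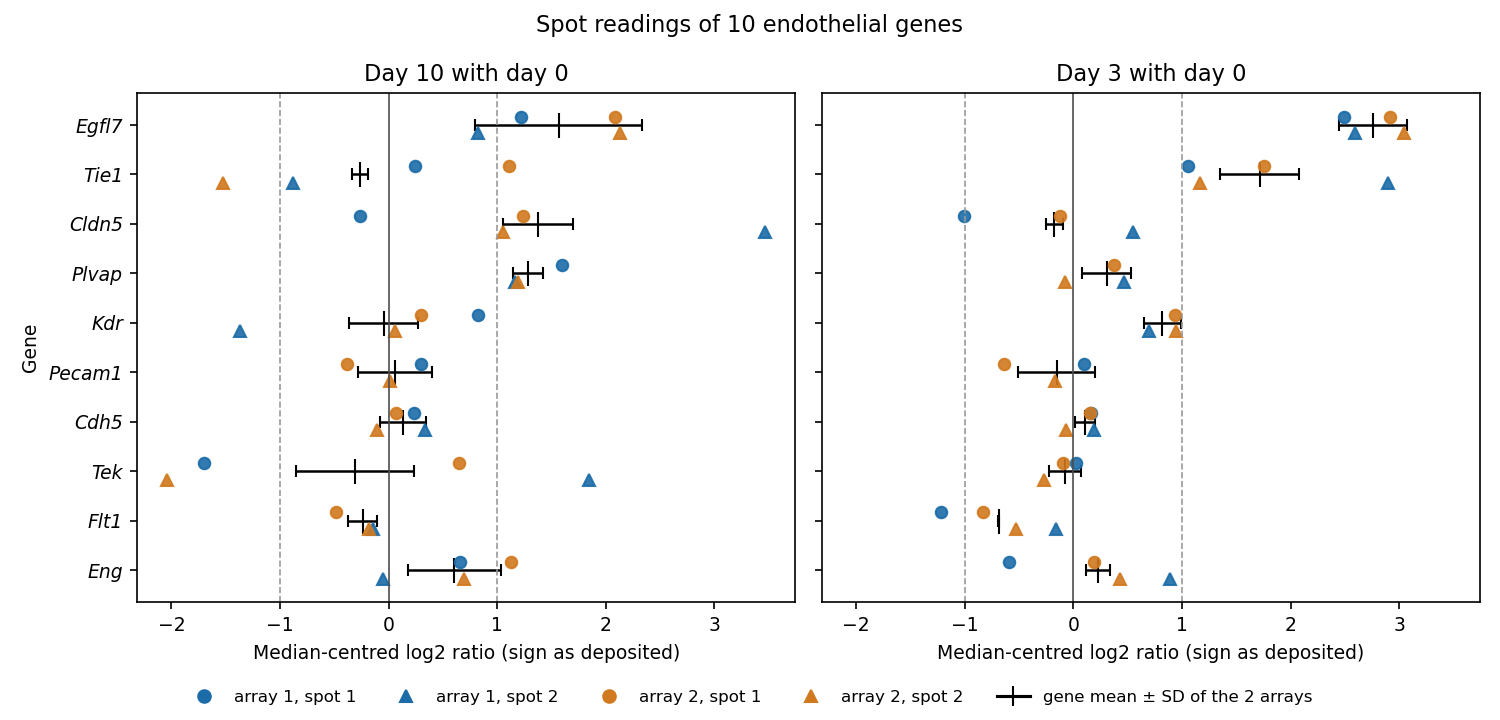
Median-centred log2 ratio (x axis, sign as deposited) of every spot of the 10 genes (y axis), for day 10 with day 0 on the left and day 3 with day 0 on the right. Circles are spot 1 and triangles spot 2, blue is array 1 and orange array 2, and black marks give the gene mean ± SD of the 2 arrays; dashed lines mark 2-fold. Egfl7 stands right of 0 at all 8 points, while the points of Tie1, Cldn5, Kdr and Tek spread to both sides of 0 at day 10. Those of Cdh5, Pecam1 and Eng also fall on both sides there.

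Egfl7 lay on the positive side on every spot of every array. At day 10 its spots read 1.22 and 0.82 on array 1 and 2.09 and 2.13 on array 2. At day 3 they read 2.49 and 2.59 on array 1 and 2.91 and 3.05 on array 2. Both spots of Egfl7 are annotated with the same expressed sequence tag, and those of each other gene share an mRNA accession, so the spots of a gene were taken as repeat readings of 1 sequence. The gene mean was 1.57 ± 0.77 at day 10 and 2.76 ± 0.31 at day 3. The spots of an array agreed within 0.40 at day 10 and 0.13 at day 3, and the arrays of day 10 stood further apart than its spots.

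Of the 13199 genes with values on both day 10 arrays, 171 had a higher mean than Egfl7 by the deposited sign, and of the 13707 at day 3, 4 did. Among 5970 genes with exactly 2 spots and all 8 readings, 314 (5.26%) had every reading on the positive side, Egfl7 among them. Its lowest reading was 0.82, and 3 of those genes had a higher lowest reading: Fth1, Smagp and Syce1, named because the count is small and after their values were seen. The Egfl7 value on the first day 10 array, 1.02, is only just past the 2-fold limit. When the arrays were scaled to a common spread, it read 0.89 there and 2.05 on the second array, and the gene was no longer counted as beyond 2-fold at day 10. As this gene was listed for its values, they are a description and carry no test.

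Tie1 encodes a receptor tyrosine kinase of endothelial cells that works beside the angiopoietin receptor. At day 10 its spot 1 read 0.25 on array 1 and 1.11 on array 2, and its spot 2 read -0.88 and -1.53. At day 3, spot 1 read 1.06 and 1.76, and spot 2 read 2.89 and 1.16. All 4 day 3 readings were thus beyond 2-fold on the positive side, and at day 10 the spots fell on opposite sides of 0. The gene mean was -0.26 ± 0.08 at day 10 and 1.72 ± 0.36 at day 3. The small SD at day 10 arises from averaging: the spots of the second array differed by 2.63, so the array means agreed while the spots did not. With the spot that differed least between arrays, the day 10 value was -1.20.

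Tek encodes the angiopoietin receptor Tie2, the partner of Tie1. At day 10 its spot 1 read -1.70 on array 1 and 0.65 on array 2, and its spot 2 read 1.84 and -2.04. At day 3, spot 1 read 0.02 and -0.10, and spot 2 had no value on array 1 and read -0.27 on array 2. Its 4 readings at day 10 changed sign between arrays and between spots, and the mean of -0.31 ± 0.54 stands for none of them. At day 3 the mean was -0.08 ± 0.15. A ratio of the Tie receptors at day 10 therefore rests on readings that disagree within an array.

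Kdr and Flt1 encode the VEGF receptors, the first the main signalling receptor of the lineage and the second a receptor that binds VEGF tightly and limits it. Kdr spots at day 10 read 0.83 and -1.37 on array 1 and 0.30 and 0.06 on array 2. At day 3, Kdr read 0.70 on the only spot with a value on array 1, and 0.94 and 0.94 on array 2. Kdr thus stood on the positive side in all 3 day 3 readings and straddled 0 at day 10. Its means were -0.04 ± 0.32 at day 10 and 0.82 ± 0.17 at day 3. Flt1 had a day 10 reading of -0.14 on the only spot of array 1 with a value, and of -0.49 and -0.18 on array 2. At day 3 it read -1.22 and -0.16 on array 1 and -0.84 and -0.53 on array 2. All 7 Flt1 readings were negative, and its means of -0.24 ± 0.14 at day 10 and -0.69 ± 0.01 at day 3 lay on the other side of 0 from Kdr at day 3. Neither receptor gene was beyond 2-fold on both arrays at either day.

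Cdh5, Pecam1 and Cldn5 encode proteins of endothelial cell contacts: VE-cadherin, the adhesion receptor CD31 and a claudin of tight junctions. Cdh5 read 0.24 and 0.33 on the first day 10 array and 0.07 and -0.10 on the second. At day 3 it read 0.16 and 0.19 on array 1 and 0.16 and -0.07 on array 2. These 8 readings stayed close to 0, and the means were 0.13 ± 0.21 at day 10 and 0.11 ± 0.09 at day 3. No spot of Cdh5, a defining marker of endothelium, was beyond 2-fold on any array. Pecam1 had means of 0.06 ± 0.34 at day 10 and -0.15 ± 0.35 at day 3, with all 6 readings between -0.64 and 0.30.

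Cldn5 was beyond 2-fold at day 10 by its array means, 1.60 and 1.15, with a mean of 1.37 ± 0.32. Its day 10 spots read -0.27 and 3.47 on array 1, a difference of 3.73, and 1.24 and 1.06 on array 2. The value of the first array therefore averages a negative reading with a large positive one, while both spots of the second were just past 2-fold. With the spot that differed least between arrays, Cldn5 was at 0.48 and not beyond 2-fold at day 10. At day 3 its spots read -1.01 and 0.55 on array 1, and spot 1 read -0.12 on array 2, where spot 2 had no value. The day 3 mean was -0.18 ± 0.08, and the mean was -0.56 over the spot with a value on both arrays.

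Plvap encodes the diaphragm protein of fenestrated endothelium, and Eng encodes endoglin, a co-receptor of the TGF-beta family. Plvap read 1.60 and 1.16 on the first day 10 array and 1.19 on the only spot of the second with a value. At day 3 it read 0.47 on the only spot of array 1 with a value, and 0.37 and -0.08 on array 2. All 3 day 10 readings were beyond 2-fold and no day 3 reading was, with means of 1.28 ± 0.14 at day 10 and 0.31 ± 0.22 at day 3. Eng read 0.65 and -0.05 on array 1 and 1.13 and 0.69 on array 2 at day 10. At day 3 it read -0.59 and 0.89 on array 1 and 0.19 and 0.43 on array 2. Its means, 0.61 ± 0.43 at day 10 and 0.23 ± 0.11 at day 3, were not beyond 2-fold.

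Counted together, 3 of the 10 genes (Egfl7, Cldn5 and Plvap) were beyond 2-fold at day 10, all on the positive side, against 3.54% of 13199 genes (2.15% positive, 1.39% negative). At day 3, 2 of the 10 (Egfl7 and Tie1) were, again on the positive side, against 2.8% of 13707 genes (1.77% positive, 1.03% negative). The genes were listed with these values known, so nothing is read from the counts. Egfl7 was the gene counted at both days. By readings, Egfl7 and Tie1 had all 4 spot readings beyond 2-fold on the positive side at day 3. The same held for 1.07% of 9212 genes with 2 spots and 4 readings. At day 10 no gene of the 10 had 4 such readings, which 1.09% of 7592 genes with 4 readings had. Egfl7 and Cldn5 had 3 of 4 there and Plvap 3 of 3. Genes with a missing reading could not be counted in this way. They were Plvap, Pecam1 and Flt1 at day 10. At day 3 they were Cldn5, Plvap, Kdr, Pecam1 and Tek. The median of the 10 means was 0.10 at day 10 and 0.17 at day 3, against -0.01 and 0.01 over all genes.

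**Figure D2:**
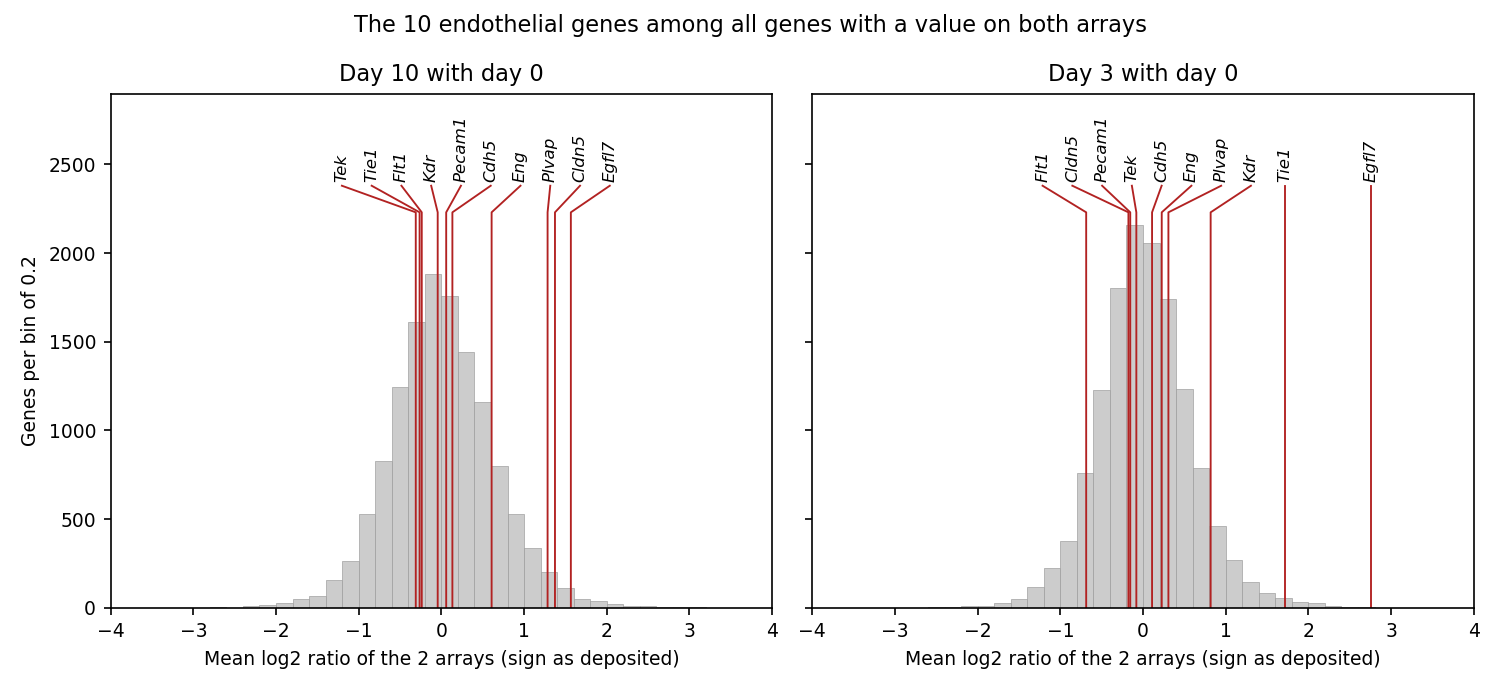
Number of genes (y axis) per bin of 0.2 in the mean log2 ratio of the 2 arrays (x axis, sign as deposited), for day 10 with day 0 on the left and day 3 with day 0 on the right. Red lines mark the 10 endothelial genes: 3 stand beyond 1 at day 10 and 2 at day 3, and the others stand between -0.69 and 0.82.

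In order of the means by the deposited sign, which runs backwards if the ratio is turned, Egfl7, Cldn5 and Plvap came first at day 10, followed by Eng, Cdh5, Pecam1, Kdr, Flt1, Tie1 and Tek. Of the 9 steps between neighbours in that order, the step of 0.68 from Plvap to Eng was larger than the combined SD of the pair, and the other 8 were not. At day 3 the order was Egfl7, Tie1, Kdr, Plvap, Eng, Cdh5, Tek, Pecam1, Cldn5 and Flt1. There, 5 of the 9 steps exceeded the combined SD: those from Egfl7 to Tie1 (1.04), Tie1 to Kdr (0.90), Kdr to Plvap (0.51), Cdh5 to Tek (0.19) and Cldn5 to Flt1 (0.51). The small SDs behind the last step, 0.08 and 0.01, arise from averaging spots that differed within an array. With the spot that differed least between arrays, Cldn5 was at -0.56 and Flt1 at -0.34, which is the reverse order.

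Day 10 was then set against day 3 by the difference of the ratios, which share the day 0 RNA if that RNA was the same on all arrays. A gene was counted where all 4 differences of a day 10 and a day 3 array were at or beyond 1 on the same side. Tie1 differed by -1.98 ± 0.37 (day 10 minus day 3, range over the 4 differences -2.29 to -1.67). Cldn5 differed by 1.55 ± 0.33 (1.27 to 1.83). These 2 of the 10 were counted, Tie1 among the 1.72% of 12654 genes on the negative side and Cldn5 among the 1.82% on the positive side (3.54% on either). With the spot of smallest array difference, Cldn5 was no longer counted. The narrow range of Tie1 arises from averaging day 10 spots that disagreed. Its spot 1 read 0.25 and 1.11 at day 10 and 1.06 and 1.76 at day 3. On that spot the days overlapped, so it would not be counted alone.

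Egfl7 differed by -1.19 ± 0.83, with 4 differences between -1.96 and -0.43, so its lower mean at day 10 was not beyond 2-fold in every pair of arrays. Kdr differed by -0.86 ± 0.36 and Plvap by 0.98 ± 0.26, both with 1 sign in all 4 pairs of arrays. Flt1 differed by 0.45 ± 0.14, also with 1 sign throughout. The Kdr value of the first day 10 array averages spots at 0.83 and -1.37. With the spot that differed least between arrays, Kdr was at 0.56 at day 10 and 0.82 at day 3. The differences of Cdh5 (0.02 ± 0.23), Pecam1 (0.21 ± 0.49), Tek (-0.23 ± 0.56) and Eng (0.38 ± 0.44) were smaller than their SD.

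The spread between technical arrays differed with the signal of the spots, which was estimated from the ratios themselves. Many deposited values are the log2 of a ratio of small whole numbers, and the geometric mean of the smallest such numbers was taken as recovered brightness. The dimmest 10% of genes by this measure had an SD of 1 array of 0.97 at day 10 and 0.89 at day 3, and the brightest 10% had 0.28 and 0.22. Cdh5 lay at the 98.5th percentile of brightness, Egfl7 at the 74.7th, Flt1 at the 69.7th and Pecam1 at the 66.0th. The other genes were dimmer: Kdr at 43.8, Tek at 42.7, Eng at 35.6, Cldn5 at 31.9, Tie1 at 30.2 and Plvap at 23.6. No reading of Cdh5 was a ratio of whole numbers up to 10000, so its rank rests on larger numbers. Where no small fraction fits, the larger one is set by the 9 decimals of the value and need not be the signal of the spot. Most readings of Egfl7 were also no ratio of whole numbers up to 10000, so its rank has the same limit. Of the genes beyond 2-fold, Egfl7 ranked above most genes by this measure, and Tie1, Cldn5 and Plvap ranked below most.

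The disagreement of spots within an array is a second measure of error. Over all genes with 2 spots, the median difference between the spots of a gene was 0.54 and 0.41 on the day 10 arrays, against 0.35 and 0.33 at day 3. The 10% of genes that disagreed most differed by more than 2.02 and 1.71 at day 10, and by more than 1.66 and 1.46 at day 3. The largest differences of Cldn5 (3.73), Tek (3.54), Tie1 (2.63) and Kdr (2.19) at day 10 were beyond these bounds, as was that of Tie1 at day 3 (1.84, on the first array). Those of Egfl7 (0.40), Cdh5 (0.17), Flt1 (0.30) and Pecam1 (0.40) were below the medians of both day 10 arrays, with Flt1 and Pecam1 read on 2 spots of the second array alone.

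**Figure D3:**
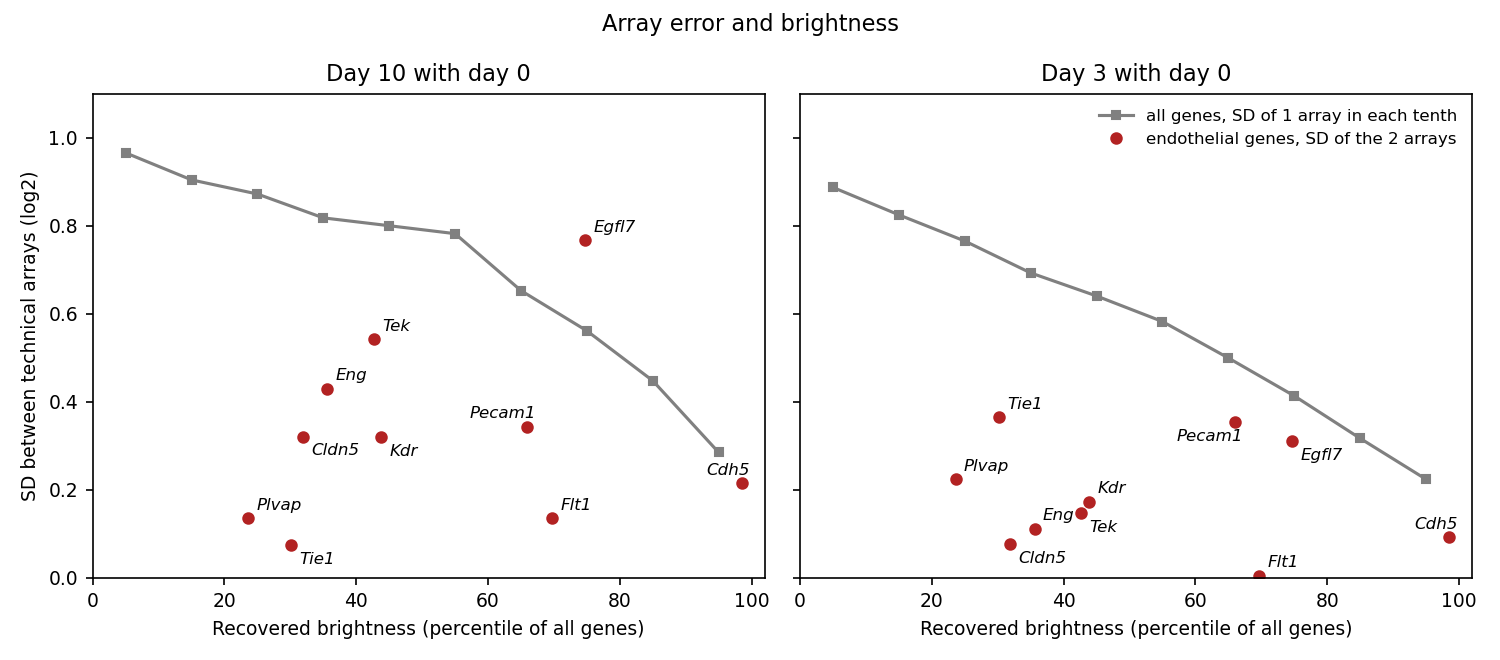
SD between technical arrays on the log2 scale (y axis) against recovered brightness as a percentile of all genes (x axis), day 10 on the left and day 3 on the right. Grey squares give the SD of 1 array over all genes in each 10% by brightness, which declines with brightness to 0.28 at day 10 and 0.22 at day 3, and red points are the 10 endothelial genes. Egfl7 lies above the grey line at day 10, at an SD of 0.77, and the other 9 genes lie below it there.

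A wider set of 81 endothelial genes, listed by role with earlier results of these arrays known, was read in the same way. Of these, 74 were on named spots. At day 10, 66 were measured on both arrays and 2 (3.03%) were beyond 2-fold, both on the negative side, against 3.54% of all genes. At day 3, 67 were measured and 4 (5.97%) were beyond 2-fold, all on the positive side, against 2.8% of all genes. The medians were 0.17 at day 10 and -0.06 at day 3. Counted on a single array, which then decides alone, the set had 20 of 69 genes beyond 2-fold on the first day 10 array and 14 of 71 on the second (29.0% and 19.7%), against 20.4% and 16.2% of all genes. At day 3 it had 13 of 69 and 18 of 72 (18.8% and 25.0%), against 14.4% and 12.8% of all genes.

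The 2 genes at day 10 were Jam3, a junctional adhesion molecule, at -1.92 and -1.27 on its arrays (-1.59 ± 0.46), and Edn1, the vasoconstrictor peptide endothelin, at -1.42 and -1.18 (-1.30 ± 0.17). Both ranked above most genes by recovered brightness, at the 65.9th and 70.3rd percentiles. With the spot that differed least between arrays, Jam3 was no longer counted, and Mcam and Cd93, named after their values were seen, were counted beside Edn1. At day 3, Jam3 was at -0.64 ± 0.65 and Edn1 at -0.10 ± 0.15.

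Of the 4 genes at day 3, 3 came from the list of Notch, arterial and venous genes, in which 11 were measured. Over all genes, 1.77% were beyond 2-fold on the positive side at day 3. The list was drawn up with earlier results of these arrays known, so nothing is read from this count. Gja4, the arterial gap junction gene for connexin 37, read -0.05 and 0.29 on its day 10 arrays and, at day 3, 1.26 and 1.92. Hey1 and Hey2, transcriptional repressors induced by Notch, had means of 0.87 ± 0.20 and -0.29 ± 0.48 at day 10, and of 1.27 ± 0.22 and 1.07 ± 0.04 at day 3. The fourth, Selp, the adhesion molecule P-selectin of endothelium and platelets, was at 0.75 ± 0.16 at day 10 and 1.48 ± 0.33 at day 3. Gja4 and Selp ranked high by recovered brightness, at the 76.6th and 80.3rd percentiles, and Hey1 and Hey2 low, at the 20.4th and 6.48th. The Notch list had a median of 0.01 at day 10 and 0.62 at day 3.

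No other list held a gene beyond 2-fold at either day besides those named. The 8 VEGF ligands and further receptors had means from -0.94 to 0.51 at day 10 and from -0.99 to 0.27 at day 3. The 4 angiopoietins and Tie partners lay between -0.41 and 0.84 at day 10 and between -0.88 and 0.15 at day 3. Transcription factors of endothelium and its blood-forming precursor, 13 measured at day 10 and 15 at day 3, had medians of 0.23 and -0.02. The endoglin and ALK1 pathway had medians of -0.02 over 7 genes at day 10 and 0.24 over 4 at day 3, and the lymphatic and sinusoidal genes 0.01 and 0.41 over 3 genes.

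**Figure D4:**
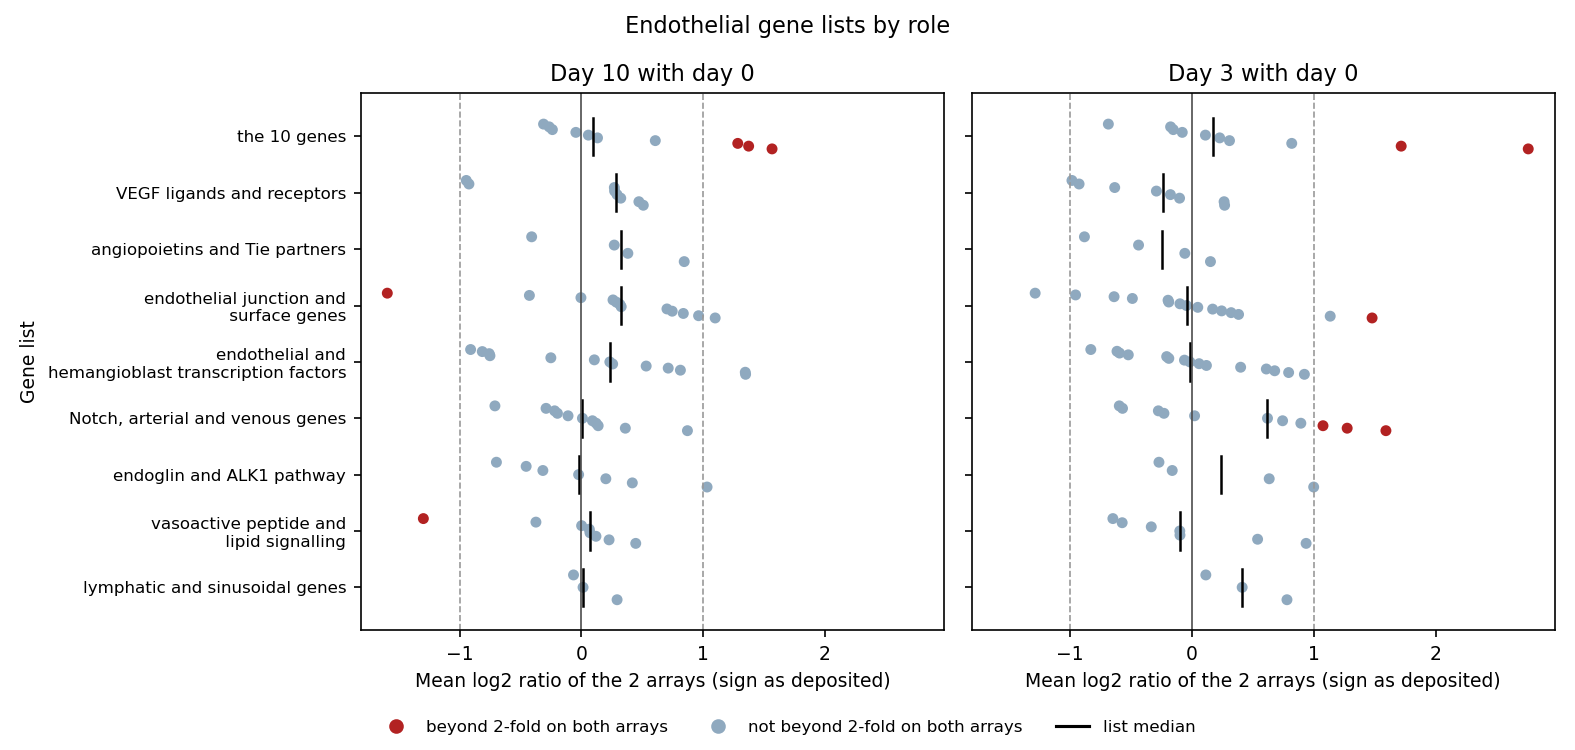
Mean log2 ratio of the 2 arrays (x axis, sign as deposited) for every measured gene of each endothelial list (y axis), day 10 on the left and day 3 on the right. Red points were beyond 2-fold on both arrays, blue points were not, and black bars are list medians. Red points outside the 10 genes number 2 at day 10, both negative, and 4 at day 3, all positive.

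Genes of other cells that an embryoid body can hold were read beside these. Of the erythroid genes, Epor and Alas2, the erythropoietin receptor and the heme synthesis enzyme of red cells, were beyond 2-fold on the positive side at day 10 (2 of 8 measured, against 2.15% of all genes on that side), and Slc4a1, the red cell anion exchanger, was at day 3 (1 of 7, against 1.77%). Their means were 1.29 ± 0.16, 1.23 ± 0.23 and 1.44 ± 0.34, and all 3 lay below the 7th percentile of brightness. The erythroid means ranged from -0.69 to 1.29 at day 10 and from -0.38 to 1.44 at day 3. Of 5 leukocyte and platelet genes and 5 mural and smooth muscle genes measured, 0 were beyond 2-fold on both arrays at either day, and with 3.54% of all genes beyond it at day 10 and 2.8% at day 3, lists of this size say little. In the visceral endoderm list, which is as short, 0 of 4 measured genes were beyond 2-fold at day 10, and at day 3 Apob was, at 1.29 ± 0.35 (1 of 6). The part of these cells in the ratios of the endothelial genes was not tested.

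The genes whose 4 array values were most like those of Egfl7 and Tie1 were found by the root mean square difference on the log2 scale. The search covered 11145 genes with values on all 4 arrays, and left out RIKEN, EST, predicted and similar names. For Egfl7 they were Tuba1a (0.77), Rpl39 (0.78) and Fam98b (0.79), so no gene of those searched came within 0.77 of it. For Tie1 they were Carhsp1 (0.14), Clu (0.17) and Letmd1 (0.19). Carhsp1 had means of -0.34 ± 0.02 at day 10 and 1.88 ± 0.25 at day 3, and Clu of -0.36 ± 0.02 and 1.56 ± 0.18. The measure rests on 4 arrays of 2 RNA pairs, each of which holds day 0 RNA. The Tie1 array values at day 10 average spots on opposite sides of 0. Its nearest genes are therefore close to values that no spot of Tie1 showed at that day.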

How the data were processed

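The values deposited by the authors, 1 for each of 46128 spots on each of 4 arrays, were read as log2 ratios of the channels. In base 2, between 59.3% and 61.9% of an array's values were ratios of whole numbers up to 10000 within their 9 decimals. After a small shift this was at most 1.49%, in base e 2.00% and in base 10 2.84%. No source used here gives the scanner, its software, the background treatment, the dyes, the numerator or why values are missing. Spots were named through the platform's annotation (32544 with 1 symbol, 588 with several, 12996 unnamed here), with symbols matched by Entrez ID to the GRCm38.p6 gene table, and 480 control spots of 5 accessions were left out. Each array was centred on its median, spots of a gene were averaged, and technical arrays were counted as 1 replicate. All 10 members were named, then any gene of the wider lists or of the lists for other cells beyond 2-fold at either day, Pou5f1 and Dppa5a, and the 3 nearest genes of Egfl7 and Tie1. Fth1, Smagp, Syce1, Mcam and Cd93 fall outside this rule and were named after their values were seen. Members and lists were chosen with earlier results of these data known. The alternatives were centring, spread, choice of spots, limit, brightness and each array left out. The steps were tested on simulated data. Python 3.11.15, numpy 2.4.6, pandas 2.3.3 and matplotlib 3.10.9 were used. The number of arrays limits the precision.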

Additional observations from a re-analysis of the deposited data

Results flagged for a closer look

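Tie1 and Cldn5 each had both day 3 arrays on one side of 0 and both day 10 arrays on the other. Tie1 read -0.32 and -0.21 at day 10 and, at day 3, 1.97 and 1.46, a difference of -1.98 (day 10 minus day 3). Cldn5 read 1.60 and 1.15 at day 10 and, at day 3, -0.23 and -0.12, a difference of 1.55. Neither difference was tested, since each day is 1 RNA pair, and the spots of both genes disagreed within an array at day 10 as described above. Spot 1 of Tie1 was on the positive side on every array of both days. The first day 3 array value of Cldn5 averages spots at -1.01 and 0.55, and on the second array spot 2 had no value. The share of all genes that change side in this way is not given.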

How the results depend on the processing

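No paired analysis was possible because the labels give no replicate numbers that link the days and no test was run. Without centring or with all spots behind the centre, the same 3 members passed 2-fold at day 10, and the same 2 at day 3. The median of the spots, the limit on the mean and genes valued on all 4 arrays also gave these genes. Those settings could not lose a member. Each member has 2 spots, whose median is their mean, and a value on all 4 arrays, and the limit on the mean is looser. A common spread gave 2 at day 10, without Egfl7, as did the spot with the smallest array difference, without Cldn5. That choice of spot gave 3 genes of the wider set at day 10, with Jam3 lost and Mcam and Cd93 gained. A 4-fold limit left 0 at day 10, 1 at day 3 (Egfl7) and 0 between the days, and a 1.5-fold limit gave 4 at day 3, with Kdr and Flt1 added. In the brightest 50% of genes 1 member (Egfl7) was counted at day 10, 1 at day 3 and 0 between the days, as Tie1, Cldn5 and Plvap are not among them. The spot with the smallest array difference left 1 member (Tie1) between the days, since Cldn5 was lost. Of the wider set at day 10, 12 genes passed 1.5-fold, 0 passed 4-fold and 6 passed 2-fold on the mean alone. At day 3 these counts were 9, 0 and 6, and 2 in the brightest 50%. With an array left out, the wider set had 14 to 20 genes at day 10 and 13 to 18 at day 3, against 2 and 4, because 1 array then decides. The members numbered 3 and 2 without either array of the day, and 2 to 3 between the days. Leaving out an array can only add genes to these counts, since a counted gene had to pass on every array or pair of arrays. Of 188 recomputed member values, 179 moved by no more than the SD of the 2 arrays and 9 moved further. Of the values beyond 2-fold, 0 changed sign. Much of this was fixed in advance. A mean without 1 array cannot move by more than that SD, and the median of 2 spots equals their mean. Genes valued on all 4 arrays and the brightest 50% left each member value as it was. With the spot of smallest array difference, 6 values moved further and 14 did not. The mean over spots with a value on both arrays of the day was an alternative added after the data were seen, and changed no count.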
